A study of Homo sapiens with 33 samples.

Results

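The mitochondrially encoded cytochrome and ATPase genes are the 6 genes of the mitochondrial chromosome that encode subunits of cytochrome c oxidase (MT-CO1, MT-CO2, MT-CO3), of the cytochrome bc1 complex (MT-CYB) and of ATP synthase (MT-ATP6, MT-ATP8). They were taken by identifier from the 60675 genes of the deposited count table, and all 6 passed the filter on low counts together with 17432 genes in all. RNA was sequenced from HT29, a human colorectal adenocarcinoma cell line, 24 h after 70% ethanol extracts of 4 Korean herbal formulas were added. Sagunja-tang, Samul-tang, Palmul-tang, which joins the herbs of both, and Sibjeondaebo-tang, an extension of Palmul-tang, were each given at 20, 100 and 500 µg/mL, called low, medium and high here. Each dose has 2 libraries of Sagunja-tang and of Samul-tang, and 3 of Palmul-tang and of Sibjeondaebo-tang. With the 3 libraries of vehicle, 0.1% DMSO in the sample labels, this gives 33 libraries in 13 groups. The DMSO content of the extract cultures is not given in those labels, so whether solvent was matched to vehicle is not known here. The series text gives a different DMSO percentage for vehicle, and this was not settled. All groups share the HT29 line, its DMEM medium with serum and the 24 h exposure, and a single cancer line stands for colonic epithelium here.

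Mitochondria keep a small circular chromosome whose proteins are all subunits of the respiratory chain and of ATP synthase. It is transcribed into long precursors from both strands, which are cut mostly at the tRNAs that lie between the genes, and each complex is then built from these subunits together with many encoded in the nucleus. In cytochrome c oxidase the mitochondrially encoded subunits form the catalytic core, in the bc1 complex cytochrome b carries electrons through the membrane, and in ATP synthase they form part of the membrane sector through which protons pass.

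All 6 genes lie on the plus strand of the mitochondrial chromosome (hg38, gene models of GENCODE 29) and have no introns. MT-CO1 (ENSG00000198804) spans chrM:5904-7445, MT-CO2 (ENSG00000198712) chrM:7586-8269, and MT-CO3 (ENSG00000198938) chrM:9207-9990. MT-ATP8 (ENSG00000228253) spans chrM:8366-8572, MT-ATP6 (ENSG00000198899) chrM:8527-9207, and MT-CYB (ENSG00000198727) chrM:14747-15887. MT-ATP8 and MT-ATP6 share 46 bases, of the 207 bases of MT-ATP8, and MT-ATP6 and MT-CO3 share 1 base. The 2 junctions are shown because reads that reach into the shared bases touch the models of 2 genes, and the shared part is a large share of the short MT-ATP8. The counting tool, named under processing below, splits ambiguous reads. How it split these was not tested, and the counts of MT-ATP8 and MT-ATP6 are uncertain to that extent. The capitals mark the shared bases.
MT-ATP8 to MT-ATP6 junction, chrM:8497-8602, plus strand: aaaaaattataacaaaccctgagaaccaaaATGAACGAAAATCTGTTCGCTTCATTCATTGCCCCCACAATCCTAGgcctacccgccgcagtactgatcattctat
MT-ATP6 to MT-CO3 junction, chrM:9177-9237, plus strand: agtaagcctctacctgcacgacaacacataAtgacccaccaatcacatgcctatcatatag
In the first of these lines the capitals open with the ATG that starts MT-ATP6 and close with the TAG that ends MT-ATP8. The ends of MT-CO3 and MT-CYB are shown because these annotated genes stop 1 base into a codon. In mitochondria such a stop codon is completed by the poly(A) tail, so these genes depend on 3' end addition for their stop. The capital marks that base.
MT-CO3 end, chrM:9961-9990, plus strand: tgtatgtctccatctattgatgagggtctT
MT-CYB end, chrM:15858-15887, plus strand: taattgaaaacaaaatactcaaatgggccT

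Total counts, in units of 1e6, were 28.6 to 49.1 in the extract libraries and 31.1 to 35.6 in the vehicle libraries. Their means were 40.6 ± 4.13 and 32.8 ± 2.45 (SD), so the vehicle libraries had fewer counts on average. What this does to the comparisons with vehicle was not tested. All 11 epithelial and colonic markers listed reached 1 CPM (counts scaled to a library total of 1e6), with summed levels of 11959 to 14639 CPM in extract libraries and 12257 to 13029 CPM in vehicle libraries. Of the 4 fibroblast, 4 leukocyte and 2 endothelial markers, 1 in each list reached 1 CPM. The summed levels of these lists were 0.836 to 1.75, 2.98 to 4.48 and 1.16 to 2.09 CPM in extract libraries, against 1.04 to 1.21, 2.93 to 4.22 and 1.66 to 1.95 CPM in vehicle libraries. No marker of these lists was at 0 in every library. Whether replicates were separate cultures is not stated, and p-values therefore describe the spread of these libraries alone, which may be technical. All sample titles carry the same batch label, BatchE, and what it covers is not stated. Vehicle, the pair Sagunja-tang and Samul-tang, and the pair Palmul-tang and Sibjeondaebo-tang each have their own opening in the sample code. The meaning of this opening is not given, and whatever it marks cannot be told apart from the extracts in comparisons with vehicle. In these bulk libraries, fewer cells and less RNA per cell cannot be told apart either.

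Together the 6 genes took up less of the sequenced RNA with extracts than with vehicle. Their summed share of total counts was 4.29 ± 0.454% in the extract libraries (SD, n = 30) and 5.86 ± 0.746% in the vehicle libraries (SD, n = 3). The vehicle libraries themselves spread widely, with 5.15% in replicate 1, 5.79% in replicate 2 and 6.64% in replicate 3. The extract libraries ran from 3.26%, in high-dose Sagunja-tang replicate 2, to 5.23%, in low-dose Sibjeondaebo-tang replicate 2, which was the one extract library above the lowest vehicle library. By group, the mean share at the low, medium and high dose was 3.85, 4.33 and 3.60% for Sagunja-tang and 4.39, 4.06 and 4.07% for Samul-tang. It was 4.62, 4.30 and 4.36% for Palmul-tang and 4.73, 4.40 and 4.27% for Sibjeondaebo-tang, so all 12 extract groups averaged below every vehicle library. No test was made on this sum.

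**Figure D1:**
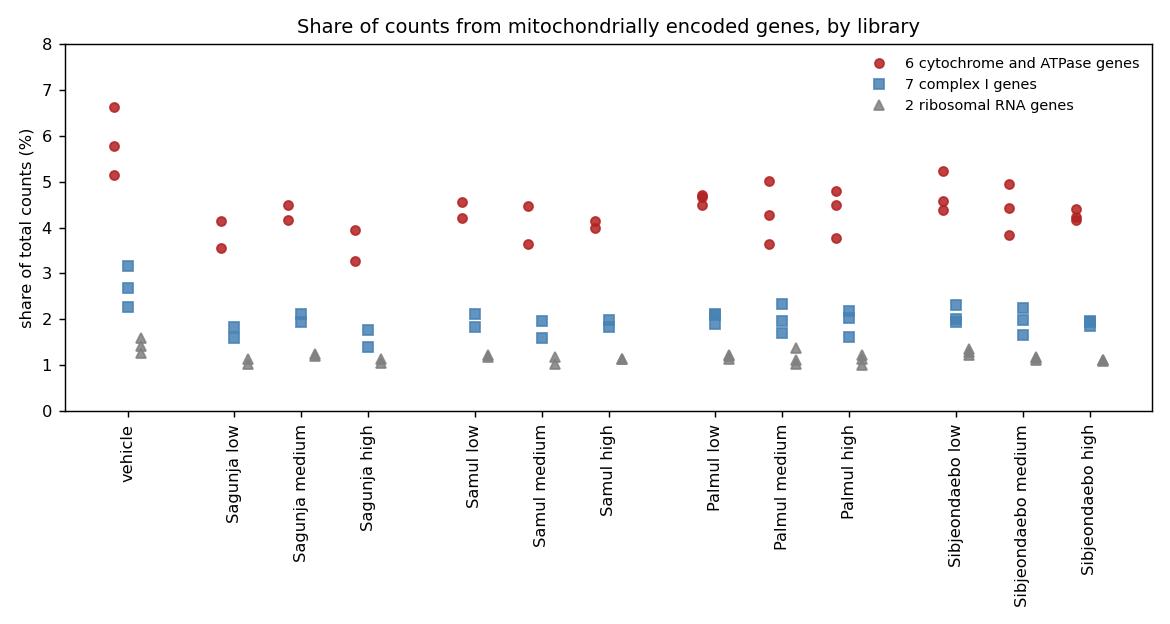
Share of total counts (%, vertical axis) of the 6 cytochrome and ATPase genes (circles), the 7 mitochondrially encoded complex I genes (squares) and the 2 mitochondrially encoded ribosomal RNA genes (triangles) in each of the 33 libraries, by formula and dose. The 6 genes hold 3.26 to 5.23% in extract libraries and 5.15 to 6.64% in vehicle libraries.

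Per base of gene the cytochrome c oxidase genes gave the most counts. On the scale of normalised CPM per kilobase, the extract libraries averaged 12724 for MT-CO3, 9944 for MT-CO1 and 9379 for MT-CO2, against 16843, 13285 and 14530 in the vehicle libraries. MT-ATP6 followed with 7491 in extract libraries and 10703 in vehicle libraries, and MT-CYB with 4927 in extract libraries and 7464 in vehicle libraries. MT-ATP8 was the lowest, with 1825 ± 474 in extract libraries and 3075 ± 721 in vehicle libraries (SD). These values divide by the full annotated length. How far the 207 bases of MT-ATP8 limit what pairs of 100-base reads can count was not tested. Its place in this order is therefore uncertain as a level of RNA. Within libraries this order held in all 30 extract libraries and all 3 vehicle libraries, except between MT-CO1 and MT-CO2. MT-CO1 stood above MT-CO2 in 23 of the 30 extract libraries and below it in 7, and it stood below MT-CO2 in all 3 vehicle libraries.

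MT-CO1 encodes the subunit of cytochrome c oxidase that holds the hemes and the copper at which oxygen is reduced. With the high doses it had 10847 and 13470 CPM in Sagunja-tang, 13930 and 15319 CPM in Samul-tang, 14542, 16471 and 17837 CPM in Palmul-tang, and 16237, 16189 and 15802 CPM in Sibjeondaebo-tang, against 18026, 20076 and 23355 CPM in vehicle. All 10 of these high-dose libraries were below all 3 vehicle libraries. Over all 30 extract libraries it ran from 10847 to 18482 CPM, with a median of 15458, and Palmul-tang at the medium dose and Sibjeondaebo-tang at the medium and low doses each had a library above the lowest vehicle library. The mean of the 12 extract groups was 0.44 ± 0.08 lower than vehicle on the log2 scale, which is 26.5% lower (edgeR quasi-likelihood test, adjusted p = 9.18e-05). Set singly against vehicle, 10 of the 12 extract groups were called lower, with log2 differences of -0.75 to -0.30, and low-dose Palmul-tang (adjusted p = 0.0605) and low-dose Sibjeondaebo-tang (adjusted p = 0.0517) were not. Without vehicle replicate 3, 4 of the 12 were called, and without vehicle replicate 2, 8.

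MT-CO2 encodes the subunit that takes electrons from cytochrome c through its own copper center, and it had the smallest adjusted p of the 6 genes. It had 5069 and 6336, 5994 and 6840, and 5013 and 6114 CPM at the low, medium and high dose of Sagunja-tang. In Samul-tang it had 6700 and 6126, 5686 and 6817, and 5750 and 6336 CPM at those doses. Both formulas stayed below the vehicle libraries, which had 8661, 9930 and 11226 CPM. In Palmul-tang it had 7137, 6308 and 6932 CPM at the low dose, 7097, 5250 and 7499 CPM at the medium dose, and 5832, 6950 and 7387 CPM at the high dose. In Sibjeondaebo-tang it had 6493, 8018 and 6132 CPM at the low dose, 6500, 7300 and 5091 CPM at the medium dose, and 6522, 7250 and 5970 CPM at the high dose. All 30 extract libraries were thus below all 3 vehicle libraries. The mean of the 12 groups was 0.65 ± 0.09 lower than vehicle on the log2 scale, or 36.2% lower (adjusted p = 7.49e-06), and all 12 groups were called lower singly, by -0.84 to -0.53. Without vehicle replicate 3, 11 of the 12 were called.

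MT-CO3 encodes the remaining core subunit, which carries no metal center and stabilises the others. With the high doses it had 8549 and 9552 CPM in Sagunja-tang, 9317 and 9231 CPM in Samul-tang, 8576, 10447 and 11756 CPM in Palmul-tang, and 10388, 10625 and 10065 CPM in Sibjeondaebo-tang, against 12083, 12830 and 14701 CPM in vehicle. Over all extract libraries it ran from 8011 to 11905 CPM with a median of 10107, and none reached the lowest vehicle library. Its fall was the smallest of the 6 in the mean of the 12 groups, at 0.42 ± 0.08 on the log2 scale or 25.3% (adjusted p = 9.05e-05). Singly, 11 of the 12 groups were called lower. Low-dose Sibjeondaebo-tang, at -0.24 ± 0.11, was not (adjusted p = 0.111), although its libraries did not overlap with those of vehicle. Without vehicle replicate 3, 5 of the 12 were called.

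MT-CYB encodes cytochrome b, the one mitochondrially encoded subunit of the bc1 complex, which passes electrons from ubiquinol toward cytochrome c. At the high doses it had 3892 and 4875 CPM in Sagunja-tang, 5443 and 5395 CPM in Samul-tang, 4707, 5964 and 6102 CPM in Palmul-tang, and 5748, 5705 and 5765 CPM in Sibjeondaebo-tang, against 6943, 8176 and 10428 CPM in vehicle. Over all extract libraries it ran from 3892 to 6889 CPM with a median of 5757, so that the highest extract library fell just short of the lowest vehicle library. The mean of the 12 groups was 0.62 ± 0.10 lower on the log2 scale, or 34.9% lower (adjusted p = 2.53e-05). All 12 groups were called lower singly, from -0.96 ± 0.16 in high-dose Sagunja-tang to -0.44 ± 0.14 in low-dose Sibjeondaebo-tang. Without vehicle replicate 3, the highest of the vehicle libraries for this gene, 6 of the 12 were called.

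MT-ATP6 encodes the subunit of ATP synthase that forms the path of protons beside the rotating ring. At the high doses it had 3903 and 4684 CPM in Sagunja-tang, 5126 and 5060 CPM in Samul-tang, 4275, 5418 and 5628 CPM in Palmul-tang, and 5144, 5432 and 5257 CPM in Sibjeondaebo-tang, against 5924, 7546 and 8395 CPM in vehicle. No high-dose library reached the lowest vehicle library, but 5 of the groups at lower doses had a library that did. The mean of the 12 groups was 0.53 ± 0.09 lower on the log2 scale, or 30.8% lower (adjusted p = 7.07e-05), and all 12 groups were called lower singly, by -0.76 to -0.40. Without vehicle replicate 3, 5 of the 12 were called, and without vehicle replicate 2, 8.

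MT-ATP8 encodes a small subunit that lies next to the product of MT-ATP6 in the membrane, and it varied most between replicates. At the low, medium and high dose it had 350 and 309, 365 and 384, and 291 and 349 CPM in Sagunja-tang, and 323 and 312, 296 and 265, and 435 and 282 CPM in Samul-tang. All 12 of these libraries were below the vehicle libraries, which had 468, 689 and 752 CPM. In Palmul-tang it had 327, 376 and 440 CPM at the low dose, 279, 413 and 544 CPM at the medium dose, and 303, 518 and 475 CPM at the high dose. In Sibjeondaebo-tang it had 496, 582 and 302 CPM at the low dose, 329, 498 and 194 CPM at the medium dose, and 343, 558 and 392 CPM at the high dose, and these 2 formulas overlapped with vehicle in 5 of their 6 groups. Its SD of log2 CPM within groups was 0.394, against 0.148 to 0.201 for the other 5 genes. The mean of the 12 groups was 0.80 ± 0.19 lower on the log2 scale, or 42.5% lower (adjusted p = 0.00137). Singly, 6 of the 12 groups were called lower, namely all of Sagunja-tang and Samul-tang but medium-dose Sagunja-tang, and medium-dose Sibjeondaebo-tang. Without vehicle replicate 2, 2 of the 12 were called, and without vehicle replicate 3, 1.

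**Figure D2:**
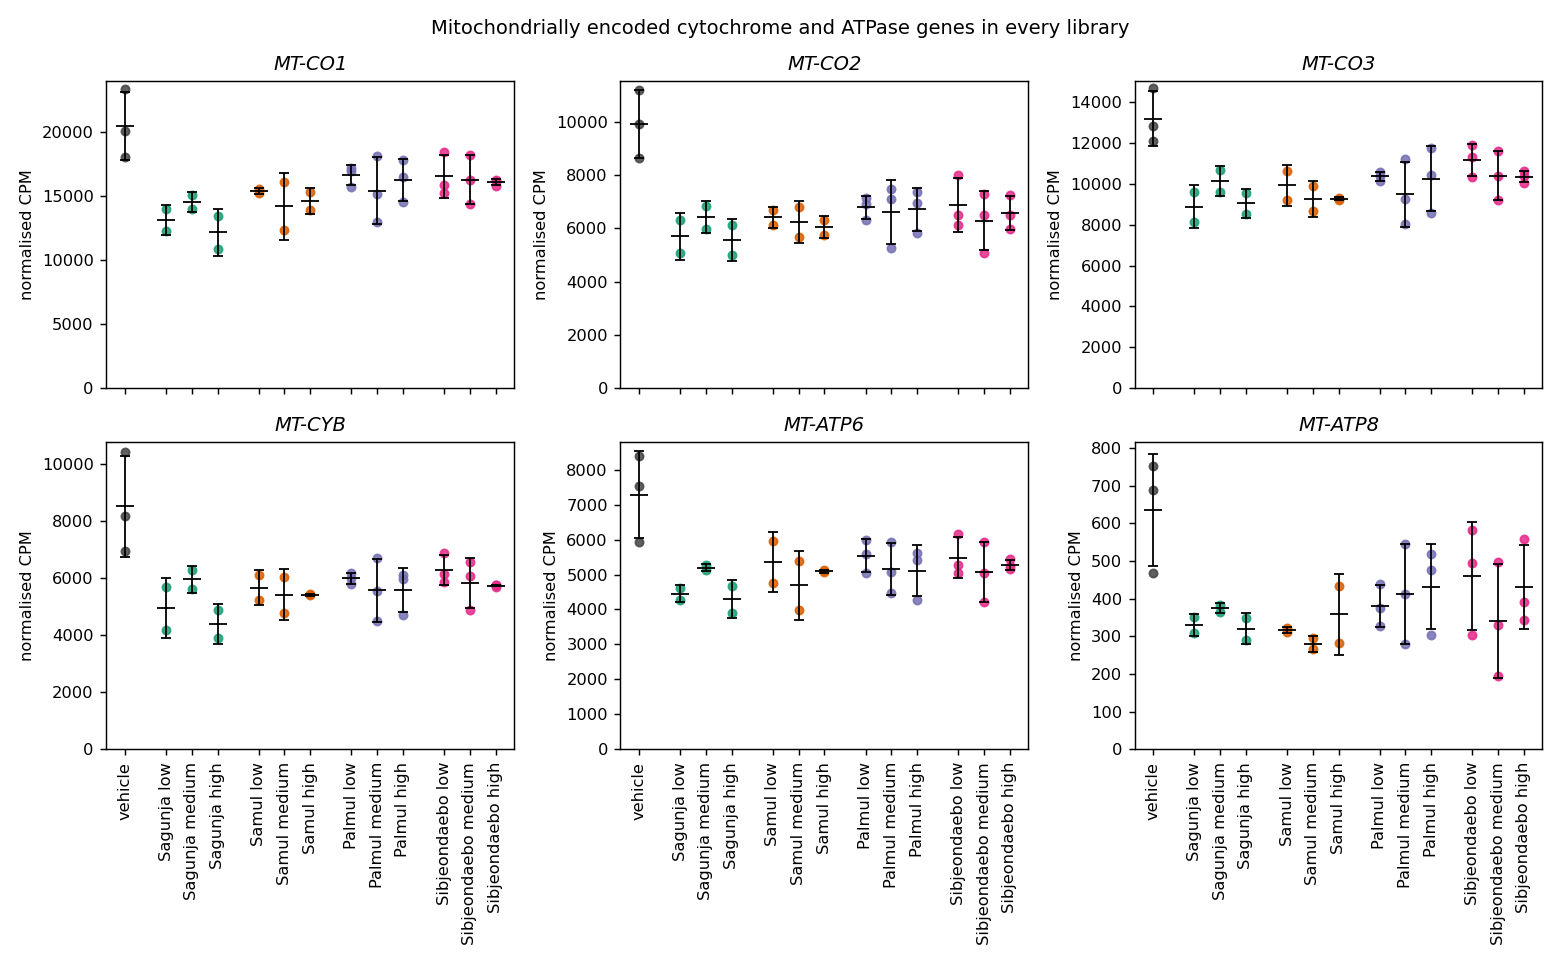
Normalised CPM (vertical axes, from 0) of each of the 6 genes in every library, by formula and dose with vehicle at the left end. Points are libraries, and bars are the mean ± SD of each group. In MT-CO2, MT-CO3 and MT-CYB every extract library lies below every vehicle library, while MT-CO1, MT-ATP6 and MT-ATP8 overlap.

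In the mean of the 12 extract groups over vehicle, all 6 genes were called lower, where 18.5% of all genes tested were called lower and 19.1% higher. On total counts alone, without the TMM scaling that sets libraries on a common level, the calls over all genes were 4299 higher and 2297 lower, against 3327 higher and 3227 lower with it, and all 6 genes were again called lower. All 30 extract libraries lay below all vehicle libraries in 3 of the 6 genes, against 4.68% of all genes tested. The median log2 difference was -0.57 over the 6 genes and -0.01 over all genes tested. Leaving out vehicle replicate 1, 2 or 3 kept all 6 called, with medians of -0.70, -0.58 and -0.43. The largest adjusted p was then 0.0342, for MT-ATP8 without vehicle replicate 3, where MT-CYB was 0.45 ± 0.11 lower.

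In the 12 single comparisons, which all share the same 3 vehicle libraries, 63 of 72 tests called the gene lower and none called it higher, and all 72 log2 differences were below 0. For Sagunja-tang, 6 of 6 genes were called lower at the low dose, where 10.7% of all genes tested were. At the medium dose of Sagunja-tang 5 were called, against 8.05% of all genes, and at the high dose 6, against 18.0%. The median log2 differences of the 6 genes at these doses were -0.75, -0.51 and -0.80. For Samul-tang, all 6 genes were called lower at the low, the medium and the high dose, against 8.71, 9.27 and 12.5% of all genes, with medians of -0.52, -0.64 and -0.58. For Palmul-tang 4, 5 and 5 genes were called lower at those doses, against 9.74, 9.63 and 14.8% of all genes, with medians of -0.45, -0.54 and -0.54. For Sibjeondaebo-tang 3, 6 and 5 genes were called lower, against 10.9%, 12% and 19.1% of all genes, with medians of -0.42, -0.54 and -0.51. Of the 9 tests that missed the threshold, 6 were of MT-ATP8, 2 of MT-CO1 and 1 of MT-CO3.

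In 59 of the 72 the libraries of the extract group were all below those of vehicle. From low to high dose this held for 6, 6 and 6 genes in Sagunja-tang, against 23.6, 21.4 and 24.8% of all genes tested, and for 5, 6 and 6 genes in Samul-tang, against 23.3, 22.8 and 24.0%. It held for 5, 3 and 5 genes in Palmul-tang, against 16.7, 15.7 and 20.9% of all genes, and for 3, 3 and 5 genes in Sibjeondaebo-tang, against 17.9, 18.6 and 23.8%. The genes whose libraries overlapped with vehicle were MT-CO1, MT-ATP6 and MT-ATP8.

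Fewer of these single calls were made without vehicle replicate 2 or 3, and without many of the single extract libraries, while the direction held in all. Of the 72 tests, 32 were called without vehicle replicate 3, the library with the highest share of these genes, 51 without replicate 2 and 68 without replicate 1. Over all genes, 3227 were called lower in the mean of the 12 groups. Without vehicle replicates 1, 2 and 3 these were 2949, 2489 and 2170. The shares of all genes called in the single comparisons are not given for these repeats. A loss of calls common to all genes is therefore not told apart here. None of the 6 genes was called in Sagunja-tang without replicate 2 of the low or of the medium dose, in Samul-tang without replicate 2 of the low or of the medium dose or without replicate 3 of the low dose, or in Sibjeondaebo-tang without replicate 3 of the low dose. In medium-dose Sagunja-tang 2 were called without replicate 3, and in high-dose Samul-tang 3 without replicate 2 and 4 without replicate 3. In Palmul-tang, 3 were called without replicate 1 of the high dose, 3 without replicate 2 of the medium dose, and 2, 1 and 2 without replicate 1, 2 or 3 of the low dose. In Sibjeondaebo-tang, 2 were called without replicate 3 of the medium dose and 1 without replicate 1 of the low dose. In every one of these repeats each gene of the comparison stayed below vehicle. Where 1 library remained in a group, its spread was taken to be that of the rest.

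**Figure D3:**
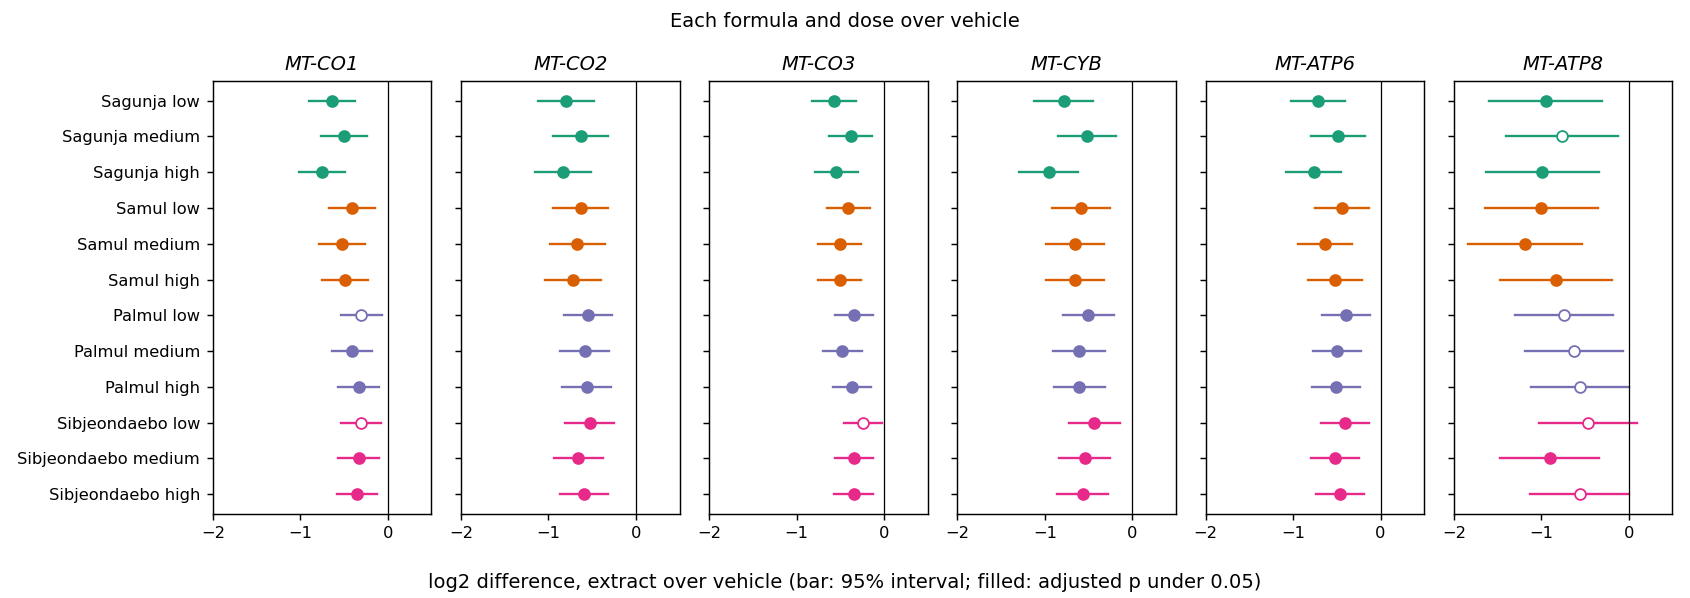
Log2 difference of each formula and dose over vehicle (horizontal axes) for the 6 genes, from edgeR over all 33 libraries. Points are estimates, filled where the adjusted p was under 0.05, and bars are 95% intervals. All 72 estimates are below 0, and the intervals of MT-ATP8 are the widest.

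No dose response was detectable in these genes, although other genes differed between doses. Of the 24 tests of high over low dose, edgeR called 0, DESeq2 called 0, and 0 had an unadjusted p under 0.05, where 7.19% of all genes tested were called in either direction in Sagunja-tang, 7.53% in Samul-tang, 14.4% in Palmul-tang and 29.9% in Sibjeondaebo-tang. The log2 differences ran from -0.17 ± 0.17, for MT-CYB in Sagunja-tang, to 0.18 ± 0.27, for MT-ATP8 in Palmul-tang. Their 95% intervals reached from -0.53 to 0.19 for MT-CYB in Sagunja-tang, and over all 24 from -0.73 to 0.86. They differed in width, and that of MT-CO3 in Palmul-tang reached from -0.24 to 0.20. A change inside the interval of its own test is not excluded by that test. The smallest adjusted p was 0.474, for MT-CO3 in Sibjeondaebo-tang, which had 10388, 10625 and 10065 CPM at the high dose and 11312, 11905 and 10333 CPM at the low dose. For medium over low dose 0 of 24 tests were called by edgeR and 0 by DESeq2, and 0 had an unadjusted p under 0.05, with differences of -0.44 to 0.27. Of all genes tested, 0% were called there in Sagunja-tang, 0.00574% in Samul-tang, 0.00574% in Palmul-tang and 0.0975% in Sibjeondaebo-tang. Without the filter on low counts, 5 of the 24 tests passed in each of these families. The SEs were far smaller in that fit, for MT-ATP8 in the mean of the 12 groups 0.030 against 0.189. The cause was not tested, and the share of all genes that passed is not given. No conclusion on dose is drawn from these passes.

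The formulas were also set against each other at the high dose, in pairs whose sample codes begin alike. In high-dose Samul-tang over high-dose Sagunja-tang, edgeR and DESeq2 called 0 of 6 genes, where 5.47% of all genes tested were called in either direction. MT-CYB, at 5443 and 5395 CPM in Samul-tang and 3892 and 4875 CPM in Sagunja-tang, differed most, by 0.31 ± 0.17 (95% interval -0.05 to 0.66, adjusted p = 0.309). MT-CO3 differed least, by 0.04 ± 0.13, and 3 of the 6 genes had every Samul-tang library above every Sagunja-tang library, against 21.7% of all genes. In high-dose Sibjeondaebo-tang over high-dose Palmul-tang, 0 of 6 genes were called by either tool, where 3.87% of all genes tested were called. The differences ran from -0.03 ± 0.14 for MT-CO2 to 0.05 ± 0.13 for MT-ATP6, whose 95% interval was -0.23 to 0.32. Over the 12 tests, 0 had an unadjusted p under 0.05. Without the filter on low counts 3 passed, in the fit with far smaller SEs, and no conclusion is drawn from them. The difference between formulas in the step from low to high dose was called in 0 of 12 tests by edgeR and DESeq2, with 0 at an unadjusted p under 0.05, against 0.138% of all genes for Samul-tang over Sagunja-tang and 1.45% for Sibjeondaebo-tang over Palmul-tang.

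With all 33 libraries, 4 of the 15 ratios between the 6 genes differed between extracts and vehicle, and none passed without vehicle replicate 2 or without vehicle replicate 3. Ratios of counts between genes of the same library do not depend on how libraries are scaled, and they were compared by an exact two-sided permutation test over the 5456 ways to draw 3 of the 33 libraries, a test added after the values were seen. The test treats the 30 extract libraries of 12 groups as one group. MT-CO1 over MT-CO2 averaged 1.26 ± 0.10 in extract libraries and 1.04 ± 0.02 in vehicle libraries on the log2 scale (SD), and the lowest extract library, at 1.09, was above the highest vehicle library, at 1.06. Its permutation p was 0.000367, the smallest this test can give, and 0.0055 after Benjamini-Hochberg adjustment over the 15 ratios. MT-CO2 over MT-CO3 averaged -0.64 ± 0.10 in extract libraries and -0.41 ± 0.06 in vehicle libraries, with 1 extract library inside the vehicle range (adjusted permutation p = 0.00825). MT-CO3 over MT-CYB was 0.18 higher in extract libraries (adjusted permutation p = 0.0238), and MT-CO1 over MT-CYB was 0.17 higher (adjusted permutation p = 0.0302). The other 11 ratios did not pass. Without vehicle replicate 2, and likewise without vehicle replicate 3, 0 of the 15 ratios passed, and without replicate 1, 7 did. With 2 vehicle libraries the smallest permutation p is 0.00403, which MT-CO1 over MT-CO2 had in each case and which became 0.0605 after adjustment without replicate 2 or 3. The difference in MT-CO1 over MT-CO2 was 0.22, 0.20 and 0.22 without vehicle replicates 1, 2 and 3, and extract and vehicle libraries stayed apart. The difference in MT-CO3 over MT-CYB without vehicle replicate 3 was 0.11 (adjusted permutation p = 0.197), and that in MT-CO1 over MT-CYB was 0.11 (adjusted permutation p = 0.266). Leaving out any 1 of the 30 extract libraries kept the same 4 ratios past the threshold. MT-CO1 over MT-CO3, at 0.62 ± 0.09 in extract libraries and 0.63 ± 0.05 in vehicle libraries, was closest to no difference (adjusted permutation p = 0.868). MT-ATP6 over MT-ATP8, which share the stretch printed above, averaged 3.79 ± 0.31 in extract libraries and 3.53 ± 0.11 in vehicle libraries (adjusted permutation p = 0.209).

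**Figure D4:**
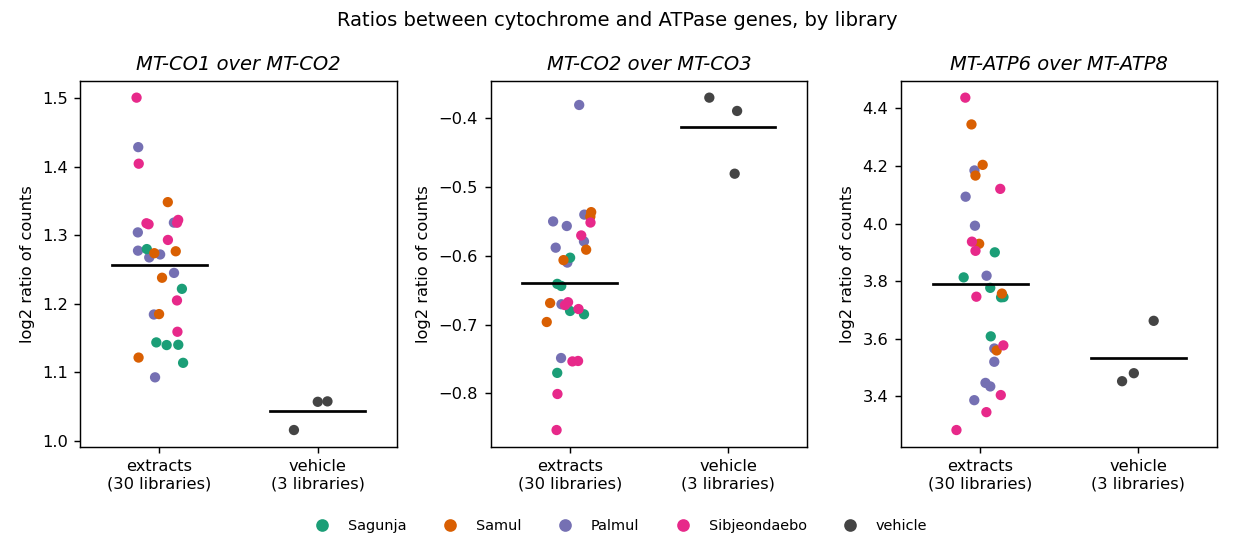
Log2 ratio of counts (vertical axes) between pairs of the 6 genes in the 30 extract libraries, coloured by formula, and the 3 vehicle libraries, with lines at the means. MT-CO1 over MT-CO2 separates the groups, MT-CO2 over MT-CO3 nearly does, and MT-ATP6 over MT-ATP8 overlaps.

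Copies of these genes lie in the nuclear chromosomes and can take or give reads. The table lists 179 such copies, of which 2 exceeded 1 CPM in any library, both on chromosome 1. MTATP6P1 (ENSG00000248527, chr1:633696-634376, plus strand) is identical to MT-ATP6 at 98.53% of its bases, and 69 of the 582 stretches of 100 bases in MT-ATP6, the read length, occur in it unchanged. The start of both is shown because a single base tells them apart over this length. It is G19A, counted from 1 at the first base of MT-ATP6 with the MT-ATP6 base first, and it is the capital in both lines.
MT-ATP6 stretch, chrM:8527-8586, plus strand: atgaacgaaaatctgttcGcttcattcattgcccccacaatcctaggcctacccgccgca
MTATP6P1 stretch, chr1:633696-633755, plus strand: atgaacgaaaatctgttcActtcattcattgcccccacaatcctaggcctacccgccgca
On the scale of CPM of total counts, MTATP6P1 had 765 ± 138 in extract libraries and 1277 ± 266 in vehicle libraries (SD), and its mean over the 12 groups was 0.81 ± 0.14 lower (adjusted p = 4.31e-05). Its counts came to 14.95% of those of MT-ATP6 in extract libraries and 17.89% in vehicle libraries. MTCO1P12 (ENSG00000237973, chr1:631074-632616), identical to MT-CO1 at 98.7% of bases, had 53.9 ± 6.44 CPM on that scale in extract libraries and 70.8 ± 1.16 in vehicle libraries, and was 0.44 ± 0.09 lower (adjusted p = 0.000443). How far reads were split between these copies and the mitochondrial genes was not tested. With each gene summed with its copies, 63 of the 72 tests with vehicle were again called, and MT-ATP6 was 0.57 ± 0.10 lower in the mean of the 12 groups.

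Most of the other mitochondrially encoded genes tested were lower as well, with 8 of 9 called in the mean of the 12 groups, 0 higher, and a median of -0.48. Over all genes tested, 18.5% were called lower there. The complex I subunit genes MT-ND4 and MT-ND5 had 7054 ± 855 and 2969 ± 335 CPM in extract libraries and 10730.0 ± 1984 and 4088 ± 589.7 CPM in vehicle libraries. They fell by 0.62 ± 0.10 (adjusted p = 1.95e-05) and by 0.48 ± 0.08 (adjusted p = 5.83e-05), and MT-ND2 fell by 0.57 ± 0.11 (adjusted p = 0.00017). MT-ND6, the one protein gene on the opposite strand, had 283 ± 54.4 CPM in extract libraries and 441 ± 84.6 CPM in vehicle libraries and fell by 0.67 ± 0.14 (adjusted p = 0.000356). MT-ND4L, at 1027 ± 111 CPM in extract libraries and 1139 ± 45.8 CPM in vehicle libraries, was not called (-0.16 ± 0.08, adjusted p = 0.136). MT-ND6 and MT-ND4L are outside the rule for named genes and were chosen after their values were seen. The ribosomal RNA gene MT-RNR2 fell by 0.36 ± 0.06 (adjusted p = 6.54e-05). The 6 genes kept much the same proportion to the complex I genes, with 2.23 ± 0.0781 counts per complex I count in extract libraries and 2.17 ± 0.0844 in vehicle libraries (SD). Against the ribosomal RNA genes they had 3.69 ± 0.249 counts per count in extract libraries and 4.11 ± 0.0599 in vehicle libraries. Without vehicle replicate 2 or 3, 7 of the 9 were called, and so they were on total counts alone.

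Of the 71 nuclear genes tested whose products join or assemble the same 3 complexes, 43 rose, 4 fell and 24 were not called. The lists that follow were chosen with earlier results of these data known, and their counts are for the mean of the 12 groups over vehicle. Over all genes tested, 19.1% were called higher and 18.5% lower in that comparison. Of the 10 nuclear subunits of cytochrome c oxidase, 6 rose and 0 fell, with a median log2 difference of 0.20. COX7A2, a small subunit of the membrane part, had 97.9 ± 8.80 CPM in extract libraries and 71.8 ± 7.54 CPM in vehicle libraries and rose by 0.44 ± 0.06 (adjusted p = 7.30e-06). COX4I1, the largest nuclear subunit, had 166 ± 13.1 CPM in extract libraries and 130.04 ± 9.60 CPM in vehicle libraries and rose by 0.35 ± 0.06 (adjusted p = 3.37e-05). COX7C and COX6C, also membrane subunits, rose by 0.29 ± 0.06 and 0.42 ± 0.09. Without vehicle replicate 2 or 3, 5 of the 10 rose. Calls over all genes became fewer too, which bears on the same repeats of the lists below. They went from 3327 higher and 3227 lower to 2617 and 2489 without replicate 2. Without replicate 3 they were 2352 higher and 2170 lower.

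Of 25 genes for the assembly of cytochrome c oxidase and its copper delivery, 17 rose and 1 fell, with a median of 0.16. COA6, which takes part in copper delivery to MT-CO2, had 14.3 ± 1.42 CPM in extract libraries and 10.1 ± 0.830 CPM in vehicle libraries and rose by 0.48 ± 0.07 (adjusted p = 3.73e-06). PET100, another assembly factor, rose by 0.57 ± 0.11, and COA1 rose by 0.17 ± 0.03. COX20, a chaperone of the newly made MT-CO2 protein, was the gene that fell, by 0.24 ± 0.04 (adjusted p = 9.23e-05), with 56.2 ± 2.80 CPM in extract libraries and 66.1 ± 2.84 CPM in vehicle libraries. Without vehicle replicate 2, 11 of these genes rose, and without vehicle replicate 3, 9.

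Of 15 nuclear subunits and assembly factors of the bc1 complex, 9 rose and 0 fell, with a median of 0.15. UQCRC1, a core subunit, rose by 0.24 ± 0.04, and UQCRQ, which lies beside cytochrome b, rose by 0.50 ± 0.09 (adjusted p = 5.66e-05). The assembly factors BCS1L and UQCC1, of which UQCC1 takes part in making cytochrome b, rose by 0.20 ± 0.04 and 0.15 ± 0.03. Of 21 nuclear genes of ATP synthase and its assembly, 11 rose and 3 fell, with a median of 0.15. ATP5F1B, the catalytic subunit, had 553 ± 31.3 CPM in extract libraries and 457 ± 40.8 CPM in vehicle libraries and rose by 0.27 ± 0.04 (adjusted p = 6.21e-06). ATP5MC3 and ATP5MC1, which encode the subunit of the ring that turns against the product of MT-ATP6, rose by 0.40 ± 0.06 and 0.28 ± 0.04. ATP5MC2, which encodes the same ring subunit, was at -0.01 ± 0.06 (adjusted p = 0.867), so the ring genes did not all rise, and ATP5ME, a subunit of the membrane part, rose by 0.56 ± 0.11. The genes that fell were ATP5PF by 0.25 ± 0.05, ATPAF2 by 0.19 ± 0.05 and ATP5MF by 0.12 ± 0.05. These genes and ATP5MC2 are named although outside the rule for named genes, after their values were seen. Of the ATP synthase list 9 rose and 1 fell without vehicle replicate 3.

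Of 31 measured genes that transcribe, copy or process mitochondrial DNA and RNA, 13 rose and 0 fell, with a median of 0.06. POLG, the mitochondrial DNA polymerase, rose by 0.35 ± 0.04 (adjusted p = 6.67e-08). FASTK and TBRG4, of a family that handles mitochondrial RNA, rose by 0.32 ± 0.04 and 0.22 ± 0.03. HSD17B10, a part of the enzyme that frees the 5' ends of mitochondrial tRNAs, rose by 0.32 ± 0.04. Of 8 tested regulators of mitochondrial gene programmes, 1 rose and 2 fell. That is near the shares over all genes tested, 19.1% higher and 18.5% lower. ESRRA, a nuclear receptor, rose by 0.36 ± 0.07, while MYC and PPRC1, a PGC-1-related coactivator, fell by 0.18 ± 0.03 and 0.18 ± 0.05, and PPARGC1B was at -0.04 ± 0.06 (adjusted p = 0.605). The median of this list was -0.02, and 0.02 on total counts alone. Of 14 mitochondrial proteases, chaperones and import genes, 9 rose and 1 fell, with a median of 0.13. The chaperone HSPD1 rose by 0.24 ± 0.04 and the proteases LONP1, HTRA2 and AFG3L2 by 0.20 ± 0.04, 0.23 ± 0.04 and 0.19 ± 0.04. Without vehicle replicate 3, 4 of the 14 rose and 0 fell, and 1 of the regulators fell in place of 2.

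**Figure D5:**
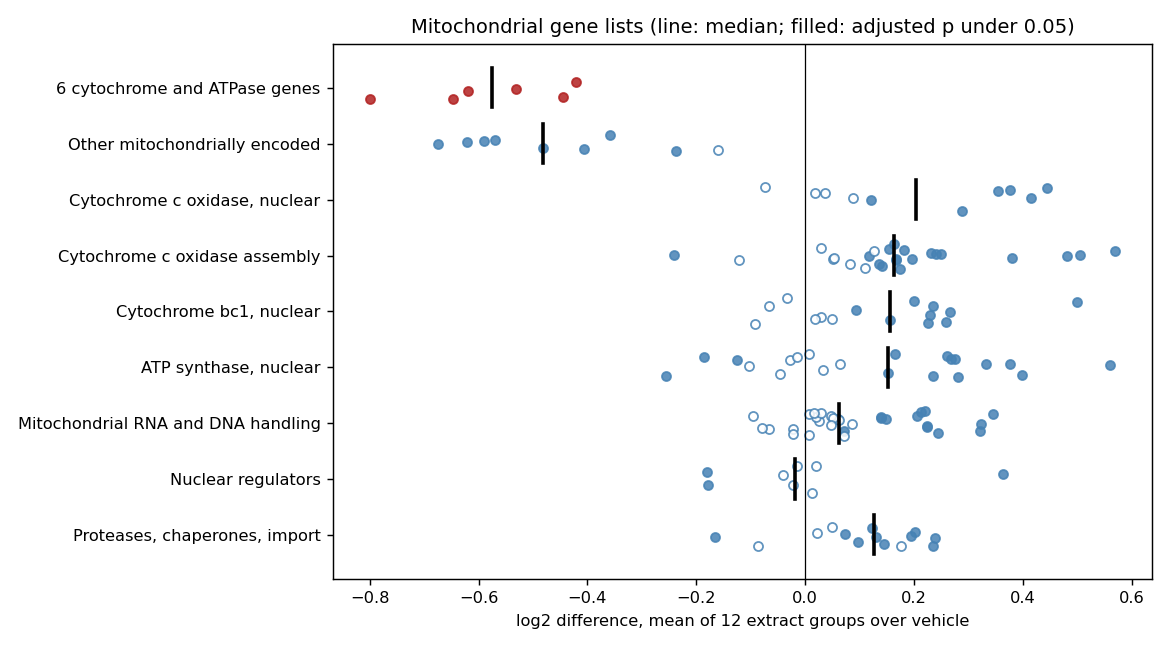
Log2 difference of the mean of the 12 extract groups over vehicle (horizontal axis) for the 6 genes and for the genes of 8 lists. Points are genes, filled where the adjusted p was under 0.05, and black lines are list medians. The median is -0.57 for the 6 genes, -0.48 for the other mitochondrially encoded genes and 0.20 for the nuclear subunits of cytochrome c oxidase.

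The genes outside the mitochondrial chromosome whose pattern was most like that of the 6 were sought among 10965 genes by Pearson's r with their mean log2 CPM over the 33 libraries, which share their depth and scaling. UBE2V1, which encodes a partner of ubiquitin-conjugating enzymes, had r = 0.919, with 362 ± 19.8 CPM in extract libraries and 452 ± 41.7 CPM in vehicle libraries. NR2F2, a nuclear receptor, followed with r = 0.906, SRRM1, a splicing coactivator, with 0.901, TCF7L2, a transcription factor of the Wnt pathway, with 0.897, and PABPC1, the cytoplasmic poly(A)-binding protein, with 0.888. Over the 30 extract libraries, which were among those used to choose these genes, r was 0.835, 0.826, 0.802, 0.791 and 0.780.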

How the data were processed

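Libraries were stranded and read as pairs of 100 bases, per the labels' protocols. Per the submitters' processing notes, reads went through FastQC 0.11.9, Trim Galore 0.6.5, STAR 2.7.3a on hg38 and RSEM 1.3.3, and the deposited values are expected counts per gene, which RSEM estimates by splitting ambiguous reads. The annotation release is not given in the sources used here. Of the values 9.45% were not whole, and they were rounded. The table has 273 columns, of which 33 map to these samples and 240 were not used. The DMSO percentage of vehicle, 0.1% in the sample labels, differs in the series text, and this was not settled. Inhibitors and doses based on inhibitory concentrations were not analysed here.

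Genes were filtered with filterByExpr (minimum count 10) and tested in R 4.3.3 with edgeR 4.0.16, using TMM, 1 coefficient per group, quasi-likelihood F tests with 20 residual and 7.00 prior degrees of freedom, and Benjamini-Hochberg adjustment over 17432 genes in each of 25 comparisons, with a threshold of 0.05. The SE of a log2 difference is its size over the square root of F, and 95% intervals use the t distribution with 27.0 degrees of freedom. CPM are TMM-normalised. Where a sentence gives an adjusted p without a tool, it is edgeR's. Total counts per library, 28.6 to 49.1 in units of 1e6, leave little counting error in genes of this level. Positions and sequences came from GENCODE 29, in which 57055 of the genes were found. Copies were aligned with Biopython 1.88, and permutation tests used SciPy 1.17.1. The test code was checked on simulated counts.

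The 6 genes and all lists were chosen with earlier results of these data known. Named genes are the 6, the 4 of smallest p in each list, and the 5 most alike in pattern whose average log2 CPM reached 2, with exceptions stated where they are named. Alternatives were DESeq2 1.42.0, RLE factors, total counts, library sizes without mitochondrial genes, no filter, fits to the compared groups alone, a block for replicate number, copies summed, and leaving out each library. List counts under other scalings and without each vehicle library, and the ratios without each library, were added after the data were seen.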

Additional observations from a re-analysis of the deposited data

How the results depend on the processing

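Over the 12 comparisons with vehicle, all 72 log2 differences stayed below 0 under every alternative run. The count of 63 calls was 63 with DESeq2, RLE factors, library sizes without mitochondrial genes and copies summed, 61 on total counts alone, 68 with only the groups compared and 72 without the filter on low counts. With 1 library left out at a time, the count over all 72 tests was remade for the 3 vehicle libraries alone, where it ranged from 32 to 68. The shares of all genes called in these repeats are not given here. The calls per comparison then ranged from 0 to 6 in low-dose and medium-dose Sagunja-tang and in low-dose and medium-dose Samul-tang, and from 3 to 6 in high-dose Samul-tang. They ranged from 1 to 6, 2 to 6 and 3 to 5 in low-, medium- and high-dose Palmul-tang, and from 0 to 4, 2 to 6 and 2 to 6 in low-, medium- and high-dose Sibjeondaebo-tang. Without the filter, 5 tests passed for high over low dose, 5 for medium over low dose and 3 between formulas, against 0 in each with it. The SE of MT-ATP6 in the mean of the 12 groups was then 0.028, against 0.094 with the filter, and the cause was not tested. No clear pairing of libraries by replicate number was found. The deviations of same-numbered libraries from their group means correlated by 0.0834 on average, against -0.0456 for other pairs. With vehicle, same-numbered libraries correlated by -0.281 to 0.495. Of the 21 pairs of groups with 3 numbers, 3 had every correlation over 0.1. Sagunja-tang and Samul-tang, with 2 libraries at each dose, are not among these 21, so pairing was not judged there in this way. With the replicate block 67 of the 72 were called, 4 gained and 0 lost. With counts of this size, counting error is small beside the spread between replicates, and 3 vehicle libraries stand behind every comparison with vehicle.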
